A study of Danio rerio with 32 samples.

Results

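The late step of differentiation, from day 7 to day 10 in culture, was examined in zebrafish myogenic progenitor cells on 12 of the 32 Affymetrix Zebrafish Genome Arrays of the study, namely every array whose title gives one of these days. Day 10 was represented by 5 arrays, A and B of array batch 1 and A to C of array batch 2, and day 7 by 7 arrays, A and B of batch 1 and A to E of batch 2. Per the labels, the cells of both days were mononuclear cells from dorsal muscle of zebrafish that were expanded in Promocell growth medium with fetal bovine serum and rhFGF and then kept in Promocell differentiation medium with horse serum, so that the labelled culture of the groups differed in its days alone. The labels give no genotype, and the study describes cells from pooled adult fish of the α-actin–RFP line, in which a skeletal muscle enhancer drives a red fluorescent protein.

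When myoblasts in culture are deprived of growth factors, they leave the cell cycle, fuse with each other and become multinucleate myotubes. The myotubes then build sarcomeres from myosin, actin, troponin and the proteins of the Z-disc, and they take up and release calcium through the sarcoplasmic reticulum to contract. Cells that do not fuse, such as fibroblasts, can go on dividing in the same dish. In such bulk cultures, fewer cells of a type and less RNA per cell cannot be told apart.

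The 12 arrays carried known differences that bear on every comparison. The 2 day 7 arrays A and B of batch 2 are labelled poor, and their median deposited signals of 277 and 267 lay above the 109 to 154 of the other 10. Each correlated with the good arrays at 0.798 to 0.887 across probe sets, whereas good arrays correlated at 0.942 to 0.977 within a batch and at 0.879 to 0.926 between batches. All arrays of batch 1 were hybridized in 1 run. In batch 2, day 10 A was hybridized in run 1, day 10 B and C together with the poor day 7 A and B in run 3, and day 7 C, D and E in run 4. Without the poor arrays, day and run therefore cannot be told apart in batch 2. The GAPDH ratio, 3′ probe set over 5′ probe set, climbs when RNA is degraded and was 1.19 to 1.31 in batch 1 on both days. In batch 2 it was 2.46 to 4.01 at day 7 and 2.52, 8.73 and 12 on the day 10 arrays A, B and C. The study calls A and B biological duplicates for most time-points, but neither it nor the labels say from how many cell preparations the arrays of a day came. The p-values therefore cover nothing beyond the spread among these arrays, part of which may be technical.

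No probe set passed the test between day 10 and day 7. Signals are given as quantile normalized linear intensities, changes as the difference of log2(signal + 32) with batch as a block, and a probe set was called at an adjusted p under 0.05 (limma, Benjamini-Hochberg). Of 15502 probe sets, 0 were called higher at day 10 and 0 were called lower, which is 0% in either direction. At an unadjusted p under 0.05, 725 probe sets (4.68%) were higher and 685 (4.42%) were lower. The smallest adjusted p was 0.0532 (limma), for wnt4. Without the 2 poor arrays the counts were again 0 and 0, with 778 and 833 probe sets at an unadjusted p under 0.05 and a smallest adjusted p of 0.122 (limma). The median standard error of a log2 change was 0.235, and the 95% interval lay within a log2 change of 1 on both sides of 0 for 75.8% of probe sets. For these probe sets a change beyond 1 on this scale was thus outside the interval. The offset of 32 shrinks the changes of dim probe sets, so for them a signal change above 2-fold can lie inside it. A log2 change beyond 1 in size was found for 153 probe sets (0.987%).

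With the hybridization run as the block in place of batch, which compares the days only in batch 1 and in the run that holds the poor arrays, 6 probe sets were called higher and 6 lower (0.0774% of all). The named ones were mmrn2a (log2 change 1.83, adjusted p = 0.026, limma), wnt4 (1.53, 0.042), wu:fc23c09 (1.3, 0.045), ldhbb (1.28, 0.026), top1mt (-1.26, 0.042) and gja3 (-1.69, 0.026), and the other probe sets had no gene symbol. These genes were named because the count was small and, apart from wnt4, ldhbb and top1mt, after their values were seen. When the poor arrays were left out of that fit, 0 probe sets were called, with 651 higher and 561 lower at an unadjusted p under 0.05 (limma). No run of batch 2 then holds both days, so this fit compares the days in batch 1 alone. It cannot show whether the calls depend on the poor arrays. In the run with the poor arrays, mmrn2a, wnt4, wu:fc23c09, ldhbb, top1mt and gja3 had log2 changes of 1.69, 1.32, 1.67, 1.42, -1.43 and -2.23. In the good arrays of batch 2 the same genes had 0.65, 1.26, 0.37, 0.35, -0.67 and -0.36. The part of the poor arrays and of the runs in this was not tested. The ldhbb signal was dim, at 12.5 to 92.8 over both days.

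The gene nearest to the threshold was wnt4, which encodes a secreted ligand of the Wnt pathway. Its signal was 22.8 and 12.5 on the day 7 arrays of batch 1 and 157 and 112 on the day 10 arrays. In batch 2 it was 44.4, 30, 64.9, 31.9 and 21.6 at day 7 and 121, 127 and 154 at day 10. All 5 day 10 arrays lay above all 7 day 7 arrays, and the day 7 values were dim. The log2 change was 1.43 ± 0.19 (SE), with 1.74 in batch 1 and 1.26 in batch 2, and it did not pass the test. Across 30 alternative settings the log2 change ran from 0.84 to 2.22 and the adjusted p from 0.0062 to 0.61 (limma), with a call in 6 of them. On the good arrays of the neighboring days the signal was 20, 22 and 14.6 at day 4 and 135 and 77.3 at day 14. On those labelled poor it was 41.9, 11.4 and 27 at day 4 and 82 and 30.3 at day 14. In the list of growth factor signaling, the leading members by p were sfrp1a, axin2 and nog1, none of which passed the test. Axin2, a feedback inhibitor induced by Wnt signaling, had a log2 change of 1.14 ± 0.33 (SE). Its days overlapped in batch 1 only, at 151 and 255 against 232 and 369. Sfrp1a, a secreted Wnt antagonist, had 0.91 ± 0.26, and nog1 had -0.79 ± 0.26. The list itself did not lean upward. Of its 90 measured genes, 44 had a positive and 46 a negative change, with a median of -0.01. At an unadjusted p under 0.05, 7 were higher and 5 lower, beside 5.15% and 5.03% of all genes.

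**Figure D1:**
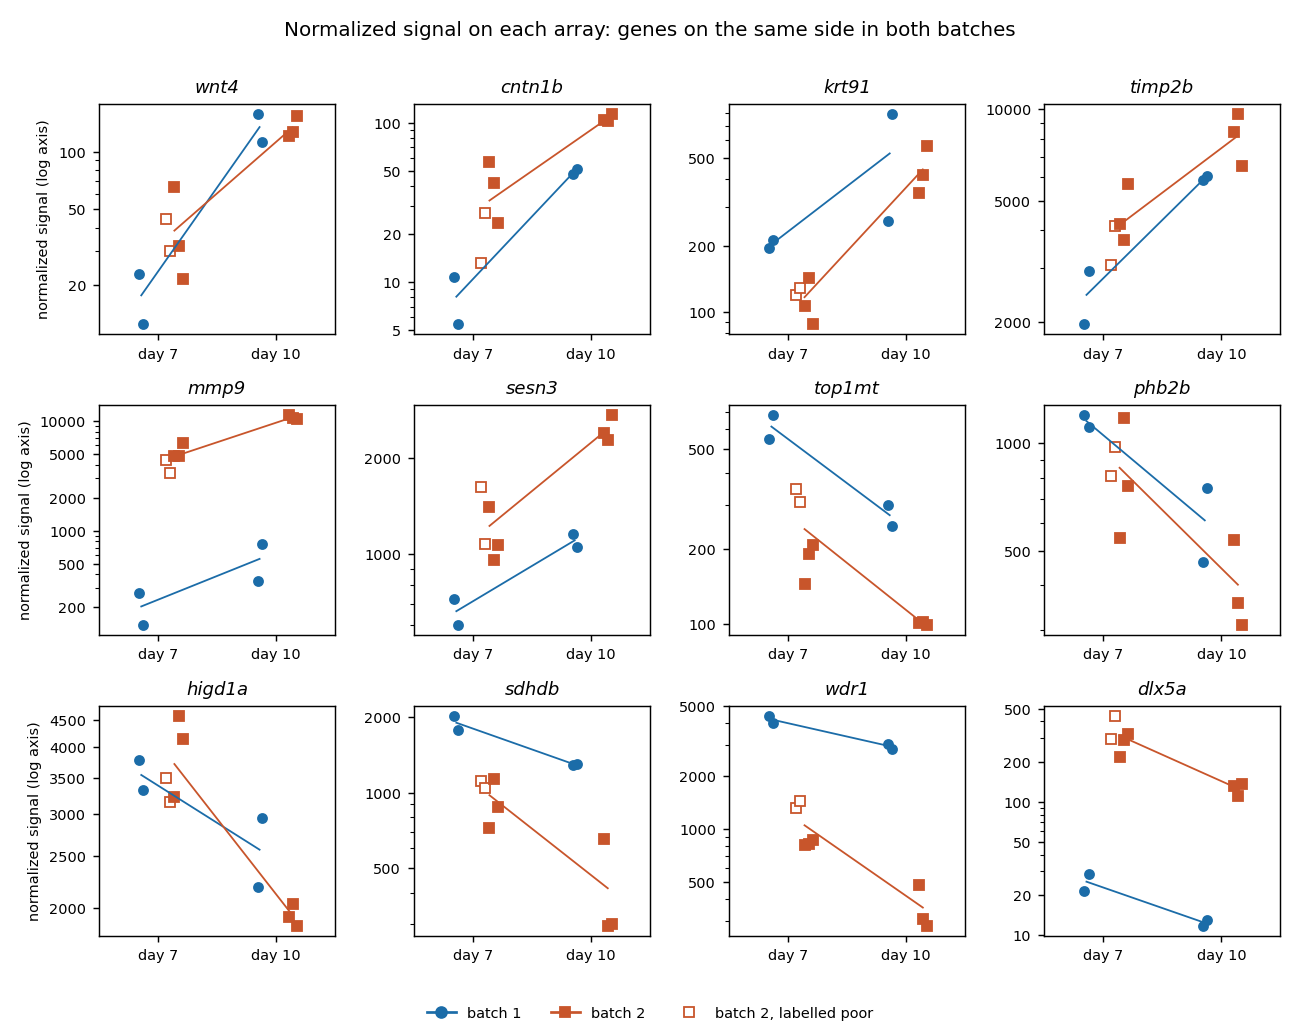
Normalized signal (log axis) on each array at day 7 and day 10 for 6 genes higher and 6 genes lower at day 10, none of which passed the test. Circles are arrays of batch 1, squares arrays of batch 2, open squares the 2 arrays labelled poor, and lines join the mean signals of a batch; in each panel both lines run the same way, as for wnt4 from 12.5 to 64.9 at day 7 to 112 to 157 at day 10.

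The 10 genes with the smallest p in the upward direction, wnt4 among them, belong to different functions. The signal of timp2b, an inhibitor of matrix metalloproteinases, was 1970 and 2940 at day 7 and 5870 and 6020 at day 10 in batch 1. In batch 2 it was 3090 to 5680 at day 7 (median 4150) and 8410, 9640 and 6540 at day 10, with no overlap in either batch. Its log2 change was 1.09 ± 0.19 (SE, adjusted p = 0.17, limma). Mmp9, a gelatinase that degrades basement membrane, had signals of 268 and 138 at day 7 and 348 and 755 at day 10 in batch 1, and of 3360 to 6360 at day 7 and 10500 to 11300 at day 10 in batch 2. The days did not overlap within a batch, although batch 2 was brighter than batch 1 on both days, and the log2 change was 1.24 ± 0.23 (SE, adjusted p = 0.20, limma). Cntn1b, a contactin of the neuronal cell surface, had a log2 change of 1.1 ± 0.18, and krt91, a keratin, one of 1.45 ± 0.25 and, on its other probe set, 1.68 ± 0.30. The cntn1b signal was dim, at 5.44 to 56.5 at day 7 and 47.6 to 113 at day 10. At day 4 it was 44.3, 7.09 and 34.8 on the good arrays and 130, 51.4 and 8.32 on the arrays labelled poor. The remaining 5 genes were sesn3, a stress-induced sestrin (0.91), ypel3 (1.14), zgc:100868 (1.44), bcl2l10, a member of the Bcl-2 family that controls apoptosis (0.89), and fam171b (0.84). All 10 genes had the same sign in both batches, which their choice by p with batch as a block favors.

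The 10 genes with the smallest p in the downward direction included several of mitochondrial proteins, whose share among all genes was not counted. Top1mt, the mitochondrial DNA topoisomerase, had signals of 547 and 683 at day 7 and 299 and 246 at day 10 in batch 1, and of 145 to 347 at day 7 and 101, 102 and 99.5 at day 10 in batch 2. No day 10 array reached the day 7 arrays of its batch, and the log2 change was -1.01 ± 0.20 (SE, adjusted p = 0.26, limma). Sdhdb, a subunit of succinate dehydrogenase, was at 2020 and 1780 against 1290 and 1300 in batch 1 and at 725 to 1130 against 652, 295 and 301 in batch 2. Its log2 change was -1.0 ± 0.23 (adjusted p = 0.39, limma), again without overlap within a batch. Phb2b, a prohibitin of the inner mitochondrial membrane, had a log2 change of -0.99 ± 0.22, pdp2, a phosphatase that activates pyruvate dehydrogenase, one of -0.98 ± 0.24, and higd1a, a respiratory chain assembly protein, one of -0.77 ± 0.17. The others were wdr1, a cofactor of actin filament disassembly (-1.13), cep72, a centrosomal protein (-0.75), the homeobox gene dlx5a (-0.85), the splicing factor u2af1 (-0.95) and the histone methyltransferase nsd1a (-1.12). Signals in batch 1 were dim for pdp2 (21.8 to 62.6), cep72 (26.5 to 74.6) and dlx5a (11.7 to 28.6). In batch 2 the day 10 signals of pdp2 (27 to 65.6) and cep72 (25.5 to 45.9) were dim too. All 10 were lower in both batches on the probe set that represents the gene, which their choice by p favors, and none passed the test. The other probe sets of cep72 and nsd1a went the other way, with log2 changes of 0.41 ± 0.40 and 0.24 ± 0.26, while those of top1mt (-1.37) and higd1a (-0.91) had the same sign.

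The lists of the mitochondrial ribosome, the respiratory chain and the tricarboxylic acid cycle leaned downward in both batches. Of 60 measured genes of mitochondrial ribosomal proteins, which translate the mitochondrial genome, 27 were lower at an unadjusted p under 0.05 and 0 were higher, where 5.03% and 5.15% of all 8793 genes were lower and higher, respectively. In both batch 1 and the good arrays of batch 2, 58 of the 60 were lower and 0 were higher, against 27.9% and 23.3% of all genes. The median log2 change was -0.36, with -0.27 in batch 1 and -0.41 in the good arrays of batch 2, beside -0.00 over all genes. In 19 of the 60, every good day 10 array lay below every good day 7 array of its batch, which held for 2.5% of all genes, and in 0 of the 60 above, which held for 1.77%. Mrpl15 had a log2 change of -0.65 ± 0.18, mrpl24 one of -0.73 ± 0.20 and mrpl37 one of -0.67 ± 0.19, and each had an adjusted p of 0.49 (limma). Summarized per array, the median of the 60 genes relative to the day 7 mean of the batch was -0.03 and 0.03 at day 7 and -0.28 and -0.28 at day 10 in batch 1. In batch 2 it was -0.22, 0.17, -0.26, 0.31 and 0.08 on the day 7 arrays A to E and -0.45, -0.41 and -0.32 on the day 10 arrays A to C. The days did not overlap in either batch. The GAPDH ratio was above the day 7 range on day 10 B and C of batch 2, and its part in these values was not tested.

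Oxidative phosphorylation and the tricarboxylic acid cycle also leaned downward in their counts. Over all genes, 5.03% were lower and 5.15% higher at an unadjusted p under 0.05, and 27.9% were lower in both batches. Of 81 genes of the respiratory chain and ATP synthase, 25 were lower and 1 was higher at an unadjusted p under 0.05, and 63 were lower in both batches. The median log2 change was -0.25, with -0.23 in batch 1 and -0.30 in the good arrays of batch 2. Cyc1, the cytochrome c1 of complex III, had signals of 5640 and 5890 at day 7 and 4220 and 3810 at day 10 in batch 1. In batch 2 cyc1 had 6520, 7980, 4100, 7810 and 5980 at day 7 and 4360, 2200 and 1920 at day 10, where day 7 C and day 10 A overlapped. Its log2 change was -0.99 ± 0.25 and that of cox7a2a, a subunit of cytochrome c oxidase, -0.64 ± 0.16. The member with the opposite sign at an unadjusted p under 0.05 was cox4i2, an isoform of a cytochrome c oxidase subunit, with a log2 change of 0.85. Of the 36 that run the tricarboxylic acid cycle or make and control pyruvate dehydrogenase, 9 were lower and 0 higher at an unadjusted p under 0.05, 27 were lower in both batches, and the median was -0.25. With the scaling of the authors alone, all genes shifted by -0.11 (median), and relative to this shift the mitochondrial ribosomal proteins stood at -0.32, the tricarboxylic acid cycle at -0.14 and oxidative phosphorylation at -0.03. Within the batches that scaling gave medians for oxidative phosphorylation of -0.25 in batch 1 and -0.28 in the good arrays of batch 2, beside 0.04 and 0.01 for all genes.

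The cytosolic ribosome did not share this lean. Of its 71 measured genes, 0 were higher and 0 were lower at an unadjusted p under 0.05, and the median log2 change was 0.03. With the scaling of the authors alone that median was 0.23, or 0.34 relative to all genes. These genes were bright, with median log2 levels of 14.58 at day 7 and 14.6 at day 10, against 8.19 and 8.24 for all genes. Quantile normalization gives every array the same top values, which limits how far so bright a list can move. Over all genes, 5.03% were lower and 5.15% higher at an unadjusted p under 0.05. Of 48 genes of fatty acid oxidation, which also takes place in mitochondria, 5 were lower and 0 higher, with a median of -0.09. This list did not keep its side, since its median was -0.22 in batch 1 and 0.06 in the good arrays of batch 2. Of the 48, 20 were lower in the former and higher in the latter, against 22.9% of all genes. Glycolysis, glycogen and creatine kinase (8 of 43 lower, 3 higher) had a median of -0.15. Sterol synthesis (5 of 17 lower, 0 higher) had a median of -0.33, with -0.08 in batch 1 and -0.43 in the good arrays of batch 2. Hspd1, the mitochondrial chaperone listed with the stress genes, had a log2 change of -0.91 ± 0.23 and did not pass the test.

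**Figure D2:**
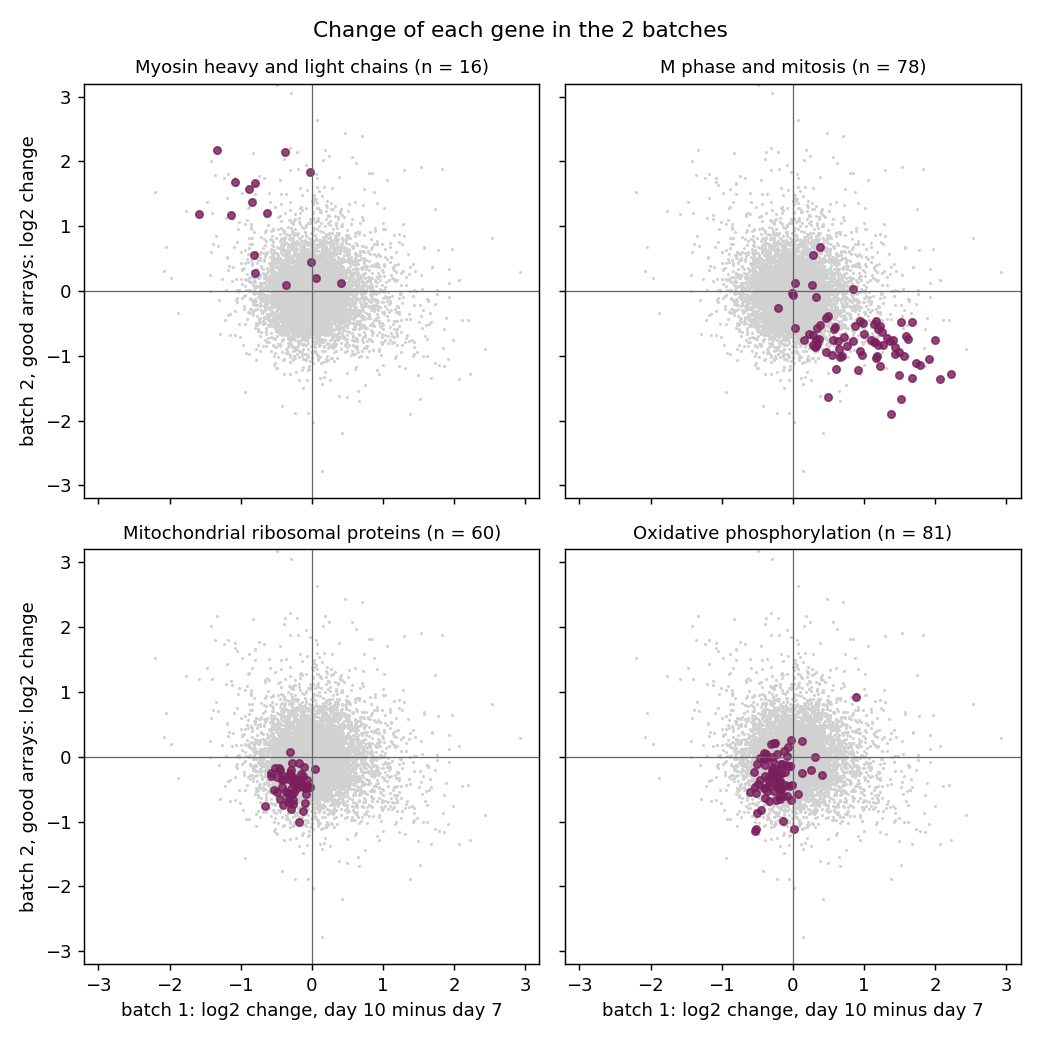
Log2 change from day 7 to day 10 of each gene in batch 1 (horizontal axis) and in the good arrays of batch 2 (vertical axis). Grey points are all 8793 genes and purple points the members of 4 lists; 58 of 60 genes of the mitochondrial ribosome lie at the lower left, 71 of 78 mitotic genes in the lower right and 14 of 16 myosin genes in the upper left.

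The genes of the contractile apparatus stood on opposite sides in the 2 batches. Mylpfa, a regulatory light chain of fast muscle myosin, had signals of 1980 and 4010 at day 7 and 1100 and 1110 at day 10 in batch 1. In batch 2 mylpfa had 339, 379, 539, 414 and 259 at day 7 and 1760, 1450 and 2530 at day 10. Day 10 thus lay below day 7 on every array of batch 1 and above it on every array of batch 2, with log2 changes of -1.33 and 2.21. The change differed between the batches by 3.54 ± 0.49 (SE, adjusted p = 0.048, limma test of the difference). Pvalb3, a parvalbumin that buffers calcium in fast muscle, was at 653 and 564 against 172 and 229 in batch 1 and at 107 to 147 against 442, 380 and 313 in batch 2. The days again did not overlap in either batch, and its change differed by 2.80 ± 0.33 (adjusted p = 0.027, limma). These were 2 of the 3 probe sets (0.0194% of all) whose change differed between the batches, while 868 (5.6%) did so at an unadjusted p under 0.05. They were named because the count was small, after their values were seen.

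The third was prc1b, which encodes a protein that bundles the microtubules of the midzone during cell division. Its signal was 40.6 and 45.6 at day 7 and 238 and 332 at day 10 in batch 1, and 562, 948, 369, 652 and 394 at day 7 and 177, 156 and 147 at day 10 in batch 2. Its log2 change was 2.06 in batch 1 and -1.61 in batch 2, a difference of -3.67 ± 0.48 (SE, adjusted p = 0.038, limma). With each of the 12 arrays left out in turn, the difference stayed between 2.62 and 2.98 for pvalb3, between 3.04 and 4.05 for mylpfa and between -3.89 and -3.46 for prc1b, but the calls rested on single arrays. The count of 3 became 0 without any one of day 7 A or B or day 10 B of batch 1, or of day 7 D or day 10 A, B or C of batch 2, 1 without day 10 A of batch 1, 5 without day 7 C of batch 2, 18 without day 7 A of batch 2, and 2 without day 7 B or E of batch 2.

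Without the 2 poor arrays the change differed between the batches for 36 probe sets (0.232%), 26 of which were representatives of a gene (0.296% of genes). Of these 26 genes, 3 were myosins (mylpfa, mylz3 and the slow myosin heavy chain smyhc1), 3 handle calcium (pvalb2, pvalb3 and atp2a1, the calcium pump of the fast sarcoplasmic reticulum), 2 belong to the Z-disc (actn3b and ldb3b) and 9 act in mitosis. The muscle genes among them were lower at day 10 in batch 1 and higher in batch 2, and the mitotic genes the reverse. For cdc20, an activator of the anaphase-promoting complex, the signal was 10.7 and 74.3 at day 7 and 302 and 264 at day 10 in batch 1, and 603 to 1640 at day 7 and 238, 298 and 288 at day 10 in batch 2. Plk1, the polo-like kinase of mitotic entry, was at 105 and 97 against 536 and 410 in batch 1 and at 406 to 1550 against 369, 370 and 465 in batch 2, where the poor array A of day 7 overlapped with day 10. Outside these lists stood mdka, a midkine growth factor, with log2 changes of 2.43 and -0.91, and cdo1, a cysteine dioxygenase, with -2.04 and 0.59.

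**Figure D3:**
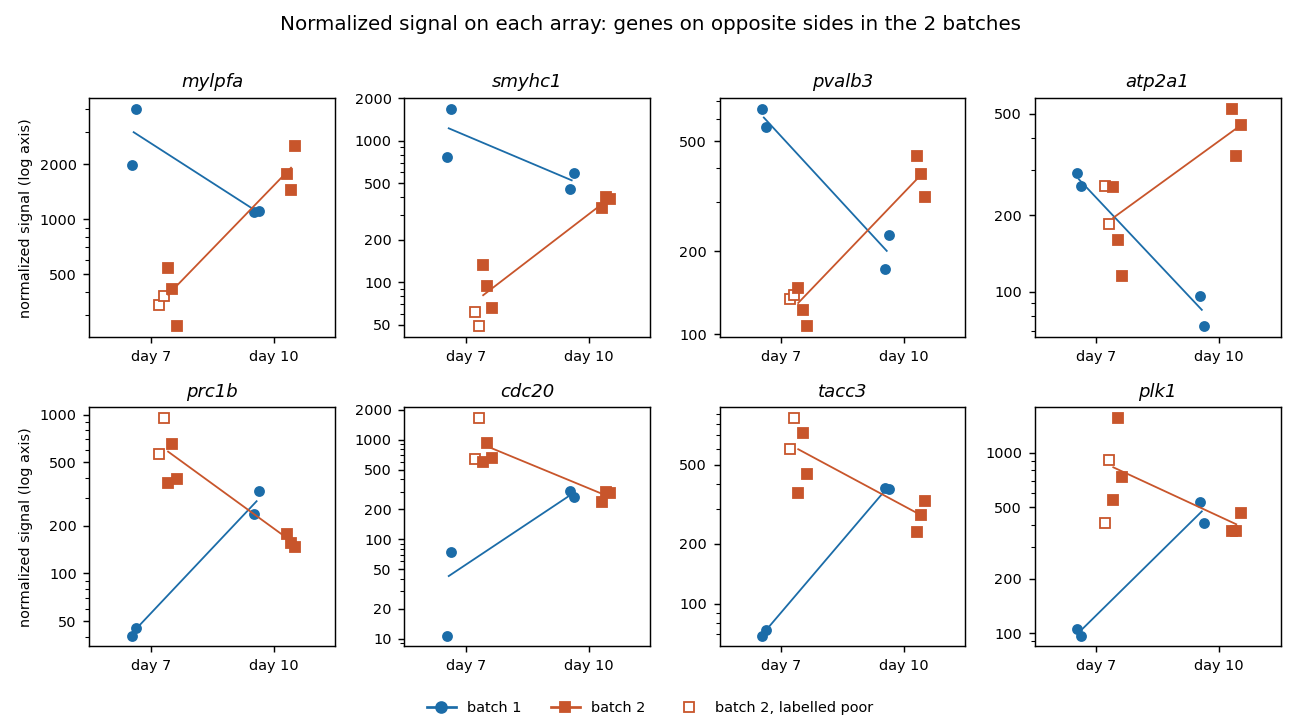
Normalized signal (log axis) on each array at day 7 and day 10 for 4 muscle genes (top) and 4 mitotic genes (bottom). Circles are arrays of batch 1, squares arrays of batch 2, open squares the 2 arrays labelled poor, and lines join the mean signals of a batch, which cross or converge toward day 10; for prc1b the day 7 arrays stand at 40.6 and 45.6 in batch 1 and at 369 to 948 in batch 2.

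The contractile lists shared this pattern to different degrees. Of 16 myosin genes, 14 were lower in batch 1 and higher in the good arrays of batch 2, a pattern held by 22.9% of all genes, and 0 had the reverse one, held by 25.9%. The median log2 change of the myosins was -0.80 in batch 1 and 1.2 in the good arrays of batch 2. With any one array left out, the batch 1 median ran from -1.03 to -0.32 and the median of all batch 2 arrays from 1.29 to 1.61. At an unadjusted p under 0.05, 11 of the 16 differed upward in batch 2, against 2.71% of all genes. The same pattern was held by 13 of 17 genes of troponin, tropomyosin and tropomodulin (medians -0.42 and 0.36), by 14 of 27 genes of the actin filament, Z-disc and M-band (-0.25 and 0.49) and by 12 of 20 genes of excitation-contraction coupling (-0.50 and 0.33). Of the 27 genes of the actin list, 8 were lower and 4 higher in both batches, and of the 20 of excitation-contraction coupling 1 was lower and 5 were higher in both. In the run of batch 2 that held both days, the myosins had a median of 1.69. Desmin, membrane and synapse proteins (-0.01 and 0.12) and the genes of myoblast fusion and adhesion (0.09 and 0.20) differed little between the batches in their medians.

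The dividing cell gave the mirror image. Of 78 genes of M phase and mitosis, 71 were higher in batch 1 and lower in the good arrays of batch 2 and 0 had the reverse pattern, with medians of 0.93 and -0.76. At an unadjusted p under 0.05, 55 of the 78 differed downward in batch 2, against 3.63% of all genes. Of 78 S phase genes, which copy the DNA, 68 had this pattern, 2 had the reverse one and 22 differed at that p, with medians of 0.31 and -0.56. Per array of batch 2, the S phase median relative to the day 7 mean was -0.57, 0.44, -0.44, 0.56 and 0.03 on day 7 A to E. On day 10 A to C it was -0.56, -0.57 and -0.36, so day 7 A and C overlapped with day 10. In the run of batch 2 that held both days the M phase and S phase medians were -0.66 and -0.38. Because the sides cancelled, the fit over both batches gave medians of only -0.18 for M phase and -0.19 for S phase, and of -0.04 and -0.17 without the poor arrays. The directions of the myosin, M phase and S phase lists in each batch were the same with the scaling of the authors alone (-0.80 and 1.69, 1.08 and -0.95, 0.45 and -0.69), and with any one array left out.

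In the levels of the cell cycle and myosin lists, the batches stood further apart at day 7 than at day 10. The median gap of the M phase genes, batch 2 minus batch 1 over good arrays, was 1.60 at day 7 and -0.05 at day 10, and that of the S phase genes 1.21 and 0.27. For the myosins the gap was -1.1 at day 7 and 0.47 at day 10. Some other lists also narrowed, such as excitation-contraction coupling (-0.53 and 0.12), glycolysis, glycogen and creatine kinase (-0.6 and -0.18) and fatty acid oxidation (-0.4 and -0.09). Further lists did not, such as oxidative phosphorylation (-0.63 and -0.68), sterol synthesis (-0.84 and -1.11) and actins, Z-disc and M-band (-0.37 and 0.42). Over all genes the medians were 0.07 and 0.05. These gaps restate the differences above as levels, and culture, array batch and RNA quality cannot be told apart in them. Across all probe sets the changes in batch 1 and in batch 2, which share no array, correlated at -0.006 (Pearson) and 0.038 (Spearman), and 51.7% had the same sign. This correlation is across probe sets, which are not independent replicates.

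**Figure D4:**
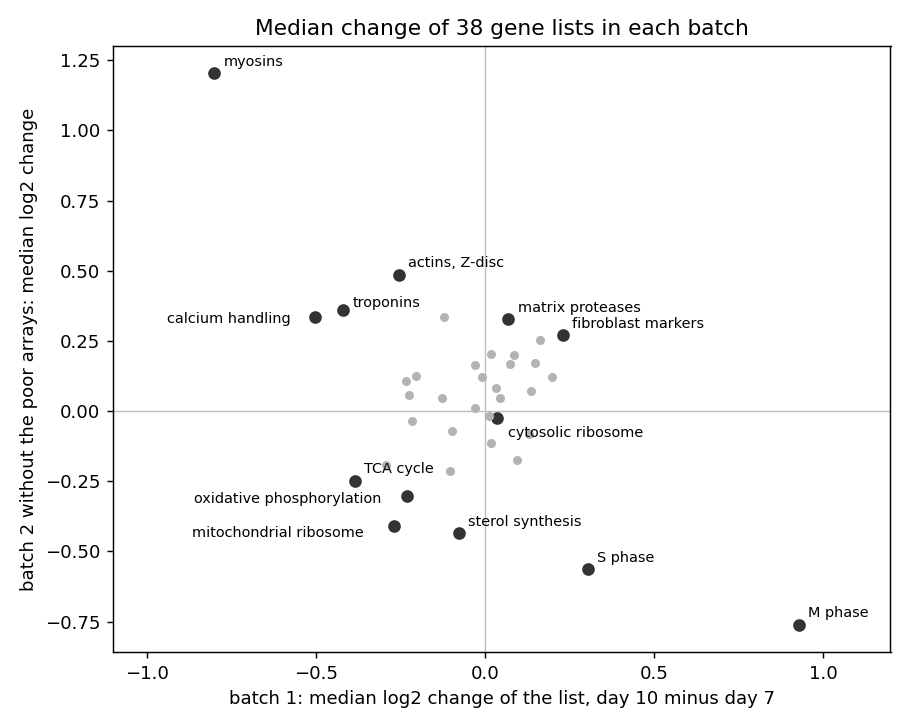
Median log2 change from day 7 to day 10 of the 38 gene lists in batch 1 (horizontal axis) and in the good arrays of batch 2 (vertical axis), with 13 lists named. The myosins (-0.80 and 1.2) and M phase (0.93 and -0.76) lie at opposite corners, and the mitochondrial ribosome (-0.27 and -0.41) lies low in both batches.

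The genes that the study followed were read in the same way. Acta1a, skeletal muscle α-actin, had signals of 2480 and 7890 at day 7 and 4240 and 3010 at day 10 in batch 1, and of 441 to 2100 at day 7 and 4220, 4530 and 6830 at day 10 in batch 2. The days overlapped in batch 1 and did not overlap in batch 2, and the log2 change was 1.44 ± 0.52 (SE, adjusted p = 0.52, limma). Desma, the muscle intermediate filament desmin, was at 1810 and 4900 against 2530 and 3210 in batch 1 and at 503 to 1380 against 2090, 2360 and 4020 in batch 2, with a log2 change of 1.05 ± 0.38. These muscle markers were therefore present on every array. Myog, the transcription factor myogenin, had a log2 change of 0.51 ± 0.35, cav3, the muscle caveolin, one of 0.43 ± 0.27, and the chemokine receptor gene cxcr4a one of 0.56 ± 0.19. The intervals of myog and cav3 included 0. The determination factors myod1 (-0.05 ± 0.22) and myf5 (-0.05 ± 0.18), the satellite cell genes pax7a (-0.27 ± 0.18) and pax3a (0.40 ± 0.25), cxcr4b (-0.07 ± 0.34) and ncam1a (-0.50 ± 0.47) also had intervals that included 0. The ncam1a signal was 302 and 119 on the 2 poor day 7 arrays, and without them its log2 change was 0.06. Signals were dim for ncam1a on the good arrays (7.32 to 54.1), pax3a (8.46 to 61.4) and, in batch 1, cxcr4a (12.5 to 28.8). None of the 11 genes passed the test. The study examined such genes for earlier reports on myogenesis and for their reproducibility on its arrays, so their direction here is not independent evidence.

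Genes of the extracellular matrix had positive medians over both batches, with values near 0 in batch 1 and no call. Of 20 matrix proteases and inhibitors, 6 were higher and 0 lower at an unadjusted p under 0.05, 10 were higher in both batches, and the median log2 change was 0.40. The shares over all genes were 5.15%, 5.03% and 23.3%, respectively. Of 28 collagens 5 were higher and 1 was lower, and of 32 other matrix proteins 5 were higher and 0 lower, with medians of 0.15 and 0.19. In batch 1 and the good arrays of batch 2 the medians were 0.07 and 0.33 for the proteases, -0.03 and 0.17 for the collagens and 0.02 and 0.20 for the other matrix proteins. Thbs4b, a thrombospondin of the muscle attachment site, had signals of 1430 and 611 at day 7 and 1700 and 574 at day 10 in batch 1 and of 309 to 842 at day 7 and 2500, 2100 and 5680 at day 10 in batch 2. It overlapped between the days in batch 1 only, and its log2 change was 1.72 ± 0.50. Lamb1a, a laminin chain of the basement membrane, had a log2 change of 1.19 ± 0.30, while col11a2, a cartilage collagen, had -0.82 ± 0.25.

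Among the other lists, the ubiquitin ligases of muscle breakdown trim63a and fbxo32 had log2 changes of 0.91 ± 0.33 and 1.02 ± 0.37, with 1.38 and 1.46 in the good arrays of batch 2 and -0.31 and 0.14 in batch 1. Of 40 genes of inflammation and innate immunity, 6 were higher and 1 was lower at an unadjusted p under 0.05, with a median of 0.26. Over all genes, 5.15% were higher and 5.03% lower at that p. Per array of batch 2, the median of the inflammation list relative to the day 7 mean ran from -0.54 to 0.70 at day 7. This range covered the 0.35, 0.29 and 0.04 of day 10 A to C. Of 77 early response and stress genes, 10 were higher and 8 lower, with a median of 0.10. Of 27 cell cycle inhibitors 5 were higher and 1 was lower, with a median of 0.14. Tob1b, an antiproliferative protein, had a log2 change of 0.81 ± 0.27, with 0.04 in batch 1 and 1.21 in batch 2. Its other probe set had a log2 change of 0.47 ± 0.33. Fgfr4, a fibroblast growth factor receptor of muscle progenitors, had one of -1.22 ± 0.43, with -0.06 in batch 1 and -1.84 in batch 2. The 18 housekeeping genes had a median of -0.03 (0.10 with the scaling of the authors alone), although gapdh itself had 0.62 ± 0.28, with -0.47 in batch 1 and 1.21 in batch 2.

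Markers of other cell types were measured on all arrays. Over all genes, 23.3% were higher and 27.9% lower in both batch 1 and the good arrays of batch 2. At an unadjusted p under 0.05, 5.15% of all genes were higher and 5.03% lower. Of 16 markers of fibroblasts and connective tissue, 10 were higher in both batches and 0 lower, 2 were higher at an unadjusted p under 0.05, and the median log2 change was 0.32. Their summed signal ran from 66400 to 87400 at day 7 and from 89400 to 106000 at day 10 in batch 1, and from 121000 to 145000 and from 142000 to 154000 in batch 2, led by col1a1a, col1a2 and dcn, and 0 of them had a median signal under 32. The summed signal of 27 leukocyte and macrophage markers was 41700 and 41800 at day 7 and 43300 and 50600 at day 10 in batch 1, against 8980 to 16000 and 15000 to 25900 in batch 2, led by cebpb, cebpa and apoeb. Of these 27 genes, 2 were higher and 1 was lower at an unadjusted p under 0.05, and 7 were higher and 6 lower in both batches. Their median log2 change was 0.12, with 0.05 in batch 1 and 0.05 in the good arrays of batch 2. The sum weighs bright genes most, such as apoeb, which was at 106 to 1160 at day 7 and 1640 to 6160 at day 10 in batch 2. Epidermal and epithelial markers (41 genes, median 0.19) summed to 127000 and 136000 at day 7 and 125000 and 135000 at day 10 in batch 1 and to 71700 to 79300 and 93600 to 109000 in batch 2. Of the 41, 5 were higher and 0 lower at an unadjusted p under 0.05, krt91 and krt94 among them, and 7, such as krt17, had a median signal under 32. Endothelial (14 genes, -0.08), erythrocyte (16, -0.24), nerve and glia (28, 0.10), cartilage, bone and scale (15, -0.19), pigment cell (9, -0.24), adipocyte (5, 0.13) and smooth muscle (13, -0.08) markers had medians on both sides of 0. Without the poor arrays the erythrocyte median turned to 0.07, and the pigment cell and adipocyte medians came to -0.01 and 0.01. With the scaling of the authors alone the nerve and smooth muscle medians were -0.08 and 0.06, or 0.02 and 0.17 relative to the shift of all genes. Of the 16 erythrocyte markers 9, hbba2 among them, had a median signal under 32. The part of these cells in the changes of the muscle, cell cycle and mitochondrial lists was not tested.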

How the data were processed

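RNA of the cultures was hybridized to the 12 Affymetrix Zebrafish Genome Arrays. Per the labels, the authors made the linear signal intensity values with MAS5 (version not given in the sources used here). Deposited intensity had a mean of 500 on every array after 2% of each tail was trimmed, although the labels give different scaling targets for the batches. The number of arrays limits the precision. Here 115 control probe sets were left out of 15617. The other 15502 were brought to the mean quantiles of the good batch 1 arrays of all days, not of days 7 and 10 alone. Then log2(signal + 32) was taken, an offset that shrinks the changes of dim genes. Day 10 was compared with day 7 in limma 3.58.1 under R 4.3.3 with batch as a block, two-sided and with 9 residual degrees of freedom, and p-values were adjusted over all probe sets by Benjamini-Hochberg. The difference between batches was the day-by-batch term. Probe sets were named from the annotation of the array, with 10711 symbols updated by Entrez gene ID and 84 kept. One symbol was found for 10795 probe sets, several for 135 and no symbol for 4572, and the brightest probe set stood for each of the 8793 genes.

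The members and the gene lists were chosen with earlier results of these data known. The text names up to 15 called genes in each direction or, where fewer were called, the 10 with the smallest p, besides the 3 leading members of a list by p and the genes of the study. Genes outside this rule, such as those of the comparison between batches, cox4i2 and the leading or dim cell type markers, were chosen after their values were seen. The fits were tested on simulated data. Alternatives covered the block, the arrays, the scaling, the offset, dim probe sets, the variance model and the representative probe set. All 32 columns matched a sample, leaving 0 without one.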

Additional observations from a re-analysis of the deposited data

Results flagged for a closer look

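The change from day 7 to day 10 differed between the 2 batches for 3 probe sets by the limma test of the difference itself (batch 2 minus batch 1, log2). It differed by 2.80 for the calcium buffer gene pvalb3, by -3.67 for the mitotic gene prc1b and by 3.54 for the myosin light chain gene mylpfa. Single arrays were examined by Dixon's test within a day over both batches, in 62 groups from 31 genes, and 0 were singled out. Since each group pools batches that differ in level, this count says little about single arrays.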

How the results depend on the processing

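The 0 probe sets higher and 0 lower became 6 and 6 with the hybridization run as the block, 11 and 2 with array weights, and 1421 and 1608 in the only run of batch 2 with both days, which set 2 good day 10 arrays against the 2 poor day 7 arrays. One probe set, wnt4, was called higher with the quantiles of the 12 arrays (1) and with the 24 good arrays of all days (1), a setting chosen after the data were seen, as was the run block without the poor arrays. Leaving out 1 array gave 0 to 2 probe sets higher, namely 1 without day 7 C of batch 2 and 2 without day 10 A of batch 1, and 0 to 0 lower. With no block, the run as a random block, either batch alone, batch 2 without the poor arrays, all 32 arrays, the scaling of the authors alone, offsets of 1 and 100, a mean signal of at least 100, or the trend and robust options, 0 and 0 were called, with smallest adjusted p of 0.0504 to 0.457 (limma). The 3 probe sets whose change differed between batches became 36 without the poor arrays, 10 with the quantiles of the 12 arrays, 7 with an offset of 100, 13 with a mean signal of at least 100, 6 with the trend and robust options, and 0 to 18 with 1 array left out. The count of list genes called was 0 and became 1 with the run block, 223 in the run with both days, 4 with array weights, and 0 to 1 with 1 array left out. The causes were not tested. With the replicate block, 0 and 0 probe sets were called. The letters shared between days gave correlations of -0.169 to 0.008 between deviations from the group means. These values cannot show whether arrays of the same letter came from 1 preparation. In batch 2 the letters were mixed with run and the poor label. The replicate block changed no call. The log2 changes of the 10 genes with the smallest p in each direction kept their sign under all settings. These genes were chosen by p on the same arrays with batch as block, which favors a kept sign, so this is no separate support. Of the 127 named genes, 30 had the opposite sign in batch 1 alone. Of 1216 list medians under alternatives, 118 moved by more than the spread between arrays.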
